A study of Mus musculus with 27 samples.

Results

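The 46 genes described here are imprinted mouse genes, taken as a fixed list of symbols that includes Mest and Peg12, out of 20847 gene symbols across 4 count tables. By the list, 26 are expressed from the paternal copy, 19 from the maternal copy, and Gnas from either copy according to the transcript. Every one of the 46 appeared in at least 1 table: 39 in the stem cell table, 43 in the germinal vesicle (GV) oocyte table, 40 in the post-GV oocyte table and 35 in the spermatid table. The tables list a gene only where some library reached 6 counts. After a filter on low counts, 35, 33, 35 and 32 of them could be tested in these 4 experiments.

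An imprinted gene is transcribed mainly from the copy inherited from 1 parent. For most of them DNA methylation set in the egg or the sperm marks 1 copy and is kept after fertilisation, and for a few, such as Gab1, Sfmbt2 and Slc38a4, a histone mark laid down in the egg takes its place. Many imprinted genes lie in clusters, act on growth of the embryo and placenta, and are imprinted only in some tissues. The marks are erased and laid down anew in germ cells, so oocytes and spermatids carry them in the pattern of their own sex. The RNA modification m6A (N6-methyladenosine) is placed on messenger RNAs by an enzyme complex around METTL3 and is bound by the reader proteins YTHDF1, YTHDF2 and YTHDF3, which are known above all for steering marked mRNAs to decay. The counts are not split by parental copy, so a change in level says nothing of which copy was active.

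RNA was sequenced in 27 libraries of 12 groups. Mouse embryonic stem cells (mESCs) of the KH2 line (C57BL/6 x 129/Sv), grown in serum with LIF, gave poly(A) libraries of Mettl3-/-, Ythdf1/2/3 triple-KO, Ythdf1-/-, Ythdf2-/-, Ythdf3-/- and WT cells, 2 libraries each. GV oocytes gave SMART-seq2 libraries of Mettl3f/f Zp3-Cre+ females (3) and Mettl3f/f Zp3-Cre- females (4), of BDF1 X C57BL/6 X Jax#003651 background. Both groups carry the floxed Mettl3 alleles, and Zp3 drives Cre in growing oocytes. Post-GV oocytes of Ythdf2-/- females (2) and Ythdf2+/- females (3), and round spermatids of Ythdf2-/- males (2) and 1 Ythdf2+/+ male, came from CB6F1 X C57BL/6 mice. The post-GV controls therefore lack 1 copy of Ythdf2 themselves. The oocytes of each mouse were pooled in 1 library, and the spermatids were sorted from the testis and sequenced after ribosomal RNA removal. The labels state neither the ages of the mice nor whether a knockout line is 1 clone.

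The stem cell libraries held 612598 to 1111764 gene counts each. The GV libraries held 6484397 to 18181397, the post-GV libraries 12409822 to 25015081 and the spermatid libraries 18843689 to 32759740. Levels are given as CPM, counts scaled by library total and TMM factor within an experiment, and a gene is said to rise or fall where its adjusted p was under 0.05 over all tested genes. Mettl3 itself averaged 16.6 CPM in Mettl3-/- and 139 CPM in WT stem cells, and 1.91 CPM in Zp3-Cre+ and 27.2 CPM in Zp3-Cre- oocytes, a fall in both. The Ythdf transcripts check nothing here, since the deleted parts are not given. The 2 stem cell libraries of each group differed by less than counting noise (a chi-square of 0.69963 to 0.83963 per gene, under 1 in 6 of 6 pairs, against 7 of 60 pairs from different groups). Nothing says that they came from separate cultures, so p-values in stem cells measure a spread that may be technical. All 5 stem cell comparisons share the same 2 WT libraries.

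Mest, a paternally expressed gene for a protein of the alpha/beta hydrolase fold that is abundant in mesoderm and placenta of the embryo, lies at chr6:30723547-30748465 on the plus strand (GRCm38, GENCODE M21). Its 3' end overlaps Copg2 on the opposite strand. Peg12, a paternally expressed gene of the Frat family, whose members bind the kinase GSK3, lies at chr7:62461871-62464510 on the minus strand, in the cluster with Ndn, Magel2 and Mkrn3. Meg3, a maternally expressed long non-coding RNA, lies at chr12:109541001-109571726 on the plus strand, in the cluster with Dlk1, Rtl1, Rian and Mirg. Promoter windows of these 3 genes from RefSeq (GRCm38.p6, 250 bases before to 50 after a transcript start) are shown because Mest and Peg12 are followed through all lines and Meg3 had the smallest adjusted p among the members that fell in stem cells. Capitals mark TGCCGC or its reverse complement GCGGCA, the core of the motif that the imprint-keeping protein ZFP57 binds when its CpG is methylated.
Mest, chr6:30733256-30733555, plus strand: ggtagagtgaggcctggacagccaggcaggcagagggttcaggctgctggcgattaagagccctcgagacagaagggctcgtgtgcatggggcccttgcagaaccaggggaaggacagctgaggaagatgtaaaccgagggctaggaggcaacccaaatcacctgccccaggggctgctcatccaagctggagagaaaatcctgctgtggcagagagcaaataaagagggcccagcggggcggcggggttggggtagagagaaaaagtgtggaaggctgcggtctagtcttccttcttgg
Mest, chr6:30737800-30738099, plus strand: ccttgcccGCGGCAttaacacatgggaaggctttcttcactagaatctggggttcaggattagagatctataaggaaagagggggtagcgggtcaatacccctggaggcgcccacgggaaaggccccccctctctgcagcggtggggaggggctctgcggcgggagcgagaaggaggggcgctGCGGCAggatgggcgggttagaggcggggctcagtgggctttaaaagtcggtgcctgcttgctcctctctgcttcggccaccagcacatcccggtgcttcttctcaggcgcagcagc
Peg12, chr7:62464461-62464760, minus strand: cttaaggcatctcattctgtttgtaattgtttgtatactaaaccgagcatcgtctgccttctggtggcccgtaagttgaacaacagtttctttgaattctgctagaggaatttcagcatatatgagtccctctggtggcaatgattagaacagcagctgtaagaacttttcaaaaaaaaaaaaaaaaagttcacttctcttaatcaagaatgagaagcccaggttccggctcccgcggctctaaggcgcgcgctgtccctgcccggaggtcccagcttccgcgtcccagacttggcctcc
Meg3, chr12:109540746-109541045, plus strand: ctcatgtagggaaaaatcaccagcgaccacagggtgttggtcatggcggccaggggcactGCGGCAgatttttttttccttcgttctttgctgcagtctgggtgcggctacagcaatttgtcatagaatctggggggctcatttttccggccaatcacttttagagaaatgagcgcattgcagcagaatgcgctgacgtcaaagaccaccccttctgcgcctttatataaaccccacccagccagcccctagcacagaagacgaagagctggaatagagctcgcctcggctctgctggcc
The upstream Mest window holds 8 CpG and no copy of the motif, the downstream one 17 CpG and 2 copies, the Peg12 window 12 CpG and no copy, and the printed Meg3 window 13 CpG and 1 copy. A second Meg3 window in the table (chr12:109545148-109545447), with 1 CpG and no copy, and a further Mest window (chr6:30737803-30738102), which nearly coincides with the downstream one, are not printed. Of the 46 members, 38 had at least 1 window in the table, 58 windows in all. The motif, searched on both strands, was in 13 of these 58 windows (22.4%) and in 3813 of 32851 windows of all genes (11.6%). The 13 include both of the nearly coinciding Mest windows. The motif itself holds a CpG, and the shares were not compared at equal CpG number. The median number of CpG was 14.5 in member windows and 7 in all windows. Windows with at least 20 CpG made up 47.6% for maternally expressed members and 15.2% for paternally expressed members, against 26.5% of all windows. These matches describe the letters of the windows, and no binding was measured.

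Mest rose in 3 of the 5 knockout stem cell lines. It had 75.6 and 70.3 CPM in Mettl3-/- cells, 37.4 and 41.1 CPM in triple-KO cells and 71.1 and 74.5 CPM in Ythdf2-/- cells, against 2.70 and 2.67 CPM in WT cells, where 3 counts lay behind each value. In the other two lines it had 4.44 and 6.56 CPM in Ythdf1-/- cells and 1.67 and 5.32 CPM in Ythdf3-/- cells. The 6 libraries of the Mettl3-/-, triple-KO and Ythdf2-/- lines lay far above the 6 others and did not overlap them. The log2 change against WT was 4.68 ± 0.32 (SE; adjusted p = 2.35e-20) in Mettl3-/-, 3.8 ± 0.38 (adjusted p = 4.83e-13) in triple-KO and 4.68 ± 0.31 (adjusted p = 8.93e-20) in Ythdf2-/- cells, or 25.6-, 13.9- and 25.7-fold. These 3 calls held under every alternative processing and with each library of the 2 compared groups left out. In Ythdf1-/- cells the difference was 1.00 ± 0.59 (adjusted p = 0.562) and in Ythdf3-/- cells 0.44 ± 0.70 (adjusted p = 0.883), which with 1 to 6 counts per library leaves a change of a few-fold undetectable at this depth. Mest passed the count filter only through the knockout groups where it was high.

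The 3 lines were then set against each other in the same fit, among the 10 pairs of knockout lines. Mest was lower in triple-KO than in Mettl3-/- cells (log2 change -0.88 ± 0.20, adjusted p = 0.00218) and lower in triple-KO than in Ythdf2-/- cells (-0.89 ± 0.19, adjusted p = 0.00202). With DESeq2 these differences had the same size (-0.89 for both) and adjusted p of 0.186 and 0.250. Between Mettl3-/- and Ythdf2-/- cells the difference was -0.01 ± 0.16 (adjusted p = 0.984). Each of the 3 lines was also higher than Ythdf1-/- and Ythdf3-/- cells, by 2.80 to 4.24 on the log2 scale. The neighbour Copg2, a coatomer subunit gene on the other strand, was 44.1 CPM in Mettl3-/-, 34.6 CPM in triple-KO, 44.7 CPM in Ythdf2-/- and 39.0 CPM in WT cells on average and was not called in any line. Whether strand was used in counting is not given in the sources used here, so reads where the 2 genes overlap cannot be told apart. In the Ythdf2-/- libraries the deposited counts of Mest, 55 and 64, happen to equal those of Peg10 in the same libraries.

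Peg12 moved in both directions. It had 37.8 and 45.7 CPM in Mettl3-/- cells, 63.9 and 46.5 CPM in triple-KO cells, 18.9 and 13.1 CPM in Ythdf1-/- cells, 22.0 and 16.3 CPM in Ythdf2-/- cells and 23.4 and 19.9 CPM in Ythdf3-/- cells, against 37.8 and 30.3 CPM in WT cells. The 6 libraries of the single Ythdf knockouts lay below both WT libraries, and the 2 triple-KO libraries above both. It fell in Ythdf1-/- cells by 1.08 ± 0.26 (adjusted p = 0.0131) and rose in triple-KO cells by 0.68 ± 0.20 (adjusted p = 0.0201). The fall was not called with DESeq2 (adjusted p = 0.747), without WT library A (-0.91, adjusted p = 0.247) or without Ythdf1-/- library B (-0.84, adjusted p = 0.359), and the rise was not called with DESeq2 (adjusted p = 0.342), without WT library B (0.52, adjusted p = 0.176) or without triple-KO library A (0.45, adjusted p = 0.35). In the other 3 lines the test was not passed. The change was -0.84 ± 0.26 in Ythdf2-/- cells (adjusted p = 0.123), -0.66 ± 0.26 in Ythdf3-/- cells (adjusted p = 0.268) and 0.31 in Mettl3-/- cells (adjusted p = 0.357).

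**Figure D1:**
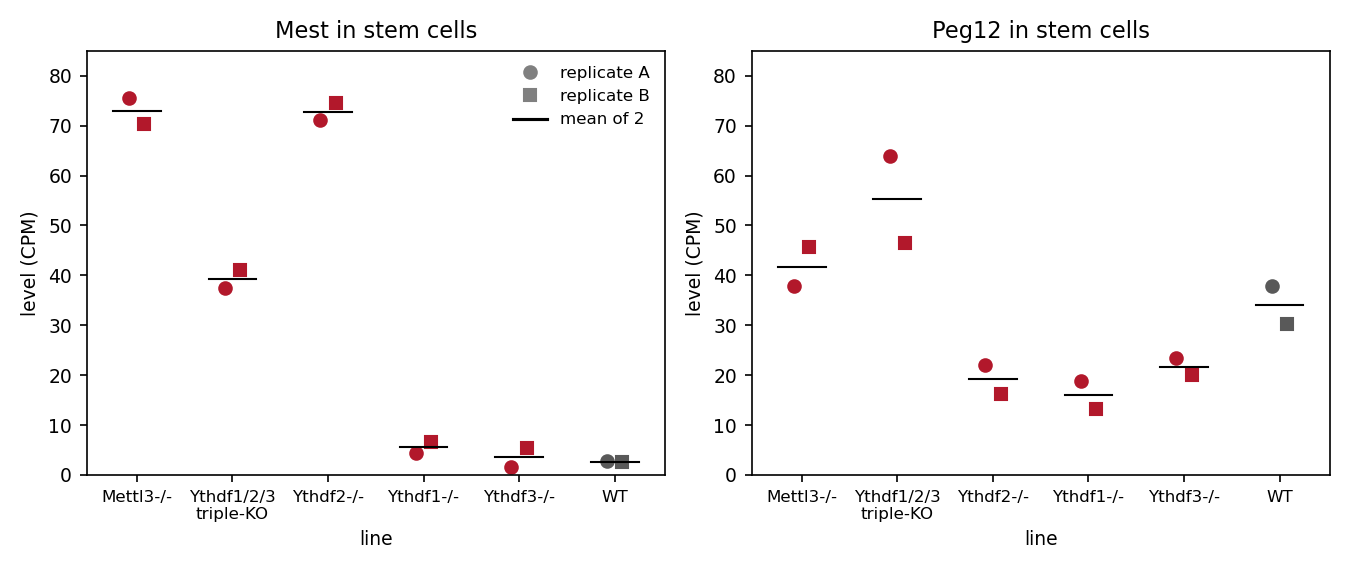
Level of Mest (left) and Peg12 (right) in CPM in each stem cell library, by line; circles are replicate A, squares replicate B and bars the mean of 2. Mest sits at 37.4 to 75.6 CPM in Mettl3-/-, triple-KO and Ythdf2-/- libraries and at 1.67 to 6.56 CPM in the others, while Peg12 is highest in triple-KO and at 13.1 to 23.4 CPM in the single Ythdf knockouts.

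Set against each other, triple-KO cells had more Peg12 than each single Ythdf knockout: by 1.77 ± 0.26 over Ythdf1-/- (adjusted p = 3.61e-07), 1.52 ± 0.25 over Ythdf2-/- (adjusted p = 8.46e-06) and 1.34 ± 0.26 over Ythdf3-/- cells (adjusted p = 0.000284). Mettl3-/- cells were also higher than each, by 1.40 over Ythdf1-/-, 1.15 over Ythdf2-/- and 0.98 over Ythdf3-/- cells. With DESeq2 the calls over Ythdf3-/- from triple-KO (adjusted p = 0.0898) and over Ythdf2-/- and Ythdf3-/- from Mettl3-/- cells (0.117 and 0.199) were lost. The last 2 were also lost without Mettl3-/- library B (adjusted p = 0.0988 and 0.19), and without library B of the Ythdf2-/- (0.0797) or Ythdf3-/- line (0.156). Triple-KO and Mettl3-/- cells differed by 0.37 ± 0.21 (adjusted p = 0.329), and no pair of single Ythdf knockouts passed. Of its cluster neighbours, Ndn, a MAGE-family gene, and Mkrn3, a ubiquitin ligase gene, were called in no stem cell line, and Magel2 had at most 6 counts in any library and was not tested.

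In Mettl3-/- stem cells 19 of 35 tested members were called, 10 up and 9 down, beside 30.4% of the 11951 tested genes (15.2% up and 15.1% down). The median log2 change was 0.24 over members and -0.00 over all tested genes. Without Mest, Igf2, Kcnq1ot1, H19 and Atp10a, which passed the filter only through groups where they were high, 15 of 30 were called (6 up, 9 down) with a median of 0.10. Paternally expressed members counted 3 up and 5 down of 17, maternally expressed members 6 up and 4 down of 17, and Gnas rose.

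Among paternally expressed members of Mettl3-/- cells, Kcnq1ot1, the long non-coding RNA that silences its cluster in cis, had 12 and 15 counts (19.7 and 17.6 CPM), against 0 and 1 count in WT cells. The ratio was 41.2 with a 95% counting interval from 6.79 to 1687, and the other lines had at most 1 count in a library, so that it passed the filter only through the Mettl3-/- libraries. Its host on the other strand, Kcnq1, was not in the stem cell table. Peg3, a zinc-finger gene of growth control, had 164 and 156 CPM in Mettl3-/- cells, against 71.2 and 67.8 CPM in WT cells (1.20 ± 0.12, adjusted p = 1.17e-13). Both Mettl3-/- libraries lay above every other stem cell library, which ran from 52.4 to 71.2 CPM.

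Of the paternally expressed members that fell, Peg10, a retrotransposon-derived gene needed in placenta, had 26.3 and 34.0 CPM in Mettl3-/- cells, against 97.3 and 97.2 CPM in WT cells (-1.66 ± 0.17, adjusted p = 1.87e-12). Plagl1, a zinc-finger transcription factor, had 36.1 and 24.6 CPM in Mettl3-/- cells, against 92.8 and 96.3 CPM in WT cells (-1.68 ± 0.18, adjusted p = 1.49e-11). The groups did not overlap for either gene. Sgce, epsilon-sarcoglycan, had 18.1 and 12.9 CPM in Mettl3-/- cells and 29.7 and 33.0 CPM in WT cells, and Sfmbt2, a Polycomb-group gene, 9.86 and 11.7 CPM in Mettl3-/- and 23.4 and 26.7 CPM in WT cells. Impact, a regulator of the kinase GCN2, fell by 0.43 ± 0.13 (adjusted p = 0.0319). These last 3 calls were lost with DESeq2 and without some single libraries, at adjusted p of up to 0.217, 0.18 and 0.42.

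Among maternally expressed members of Mettl3-/- cells, the largest rise was that of Atp10a, a phospholipid flippase gene, with 62.4 and 57.4 CPM in Mettl3-/- cells, against 0.901 and 3.57 CPM (1 and 4 counts) in WT cells (4.64 ± 0.37, adjusted p = 2.67e-17). Phlda2, which restrains placental growth, had 90.3 and 58.6 CPM in Mettl3-/- and 14.4 and 17.8 CPM in WT cells (2.14 ± 0.23, adjusted p = 3.4e-12). H19, a long non-coding RNA next to Igf2, had 18.1 and 19.9 CPM in Mettl3-/- and 5.41 and 2.67 CPM in WT cells (2.21 ± 0.46, adjusted p = 9.05e-05). In all 3 genes the Mettl3-/- libraries lay above the WT ones, but Atp10a and H19 passed the count filter only through groups where they were high. Smaller rises were those of Igf2r, the receptor that clears IGF2, at 171 and 156 CPM in Mettl3-/- and 111 and 113 CPM in WT cells (0.53 ± 0.10, adjusted p = 0.000426). Commd1, a copper-handling gene, had 202 and 199 CPM in Mettl3-/- and 149 and 130 CPM in WT cells (0.52 ± 0.10, adjusted p = 9.66e-05), and Cdkn1c, a cell-cycle inhibitor, 39.4 and 48.0 CPM in Mettl3-/- and 27.0 and 26.7 CPM in WT cells (0.72 ± 0.22, adjusted p = 0.0209). Gnas, the G-protein alpha subunit gene, had 425 and 417 CPM in Mettl3-/- and 297 and 281 CPM in WT cells (0.54 ± 0.07, adjusted p = 5.7e-09). Of these, Igf2r was not called with DESeq2 (adjusted p = 0.0572), and Cdkn1c was not called with DESeq2 (0.277) or without WT library A (0.0746), WT library B (0.0769) or Mettl3-/- library B (0.306).

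The 3 measured non-coding RNAs of the Meg3 cluster fell together in Mettl3-/- cells. Meg3 had 47.6 and 56.2 CPM in Mettl3-/- cells, against 161 and 185 CPM in WT cells (-1.71 ± 0.13, adjusted p = 9.25e-18). Rian, which hosts small nucleolar RNAs, had 32.9 and 12.9 CPM in Mettl3-/- and 74.8 and 90.9 CPM in WT cells (-1.96 ± 0.22, adjusted p = 3.68e-11). Mirg, which hosts microRNAs, had 8.21 and 8.20 CPM in Mettl3-/- and 27.9 and 41.0 CPM in WT cells (-2.05 ± 0.33, adjusted p = 1.08e-06). No Mettl3-/- library overlapped a WT library for any of them. Cd81, a tetraspanin gene, had 255 and 235 CPM in Mettl3-/- and 386 and 437 CPM in WT cells (-0.76 ± 0.08, adjusted p = 4.04e-12), and in the 8 libraries of the Ythdf lines it had 409 to 467 CPM.

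**Figure D2:**
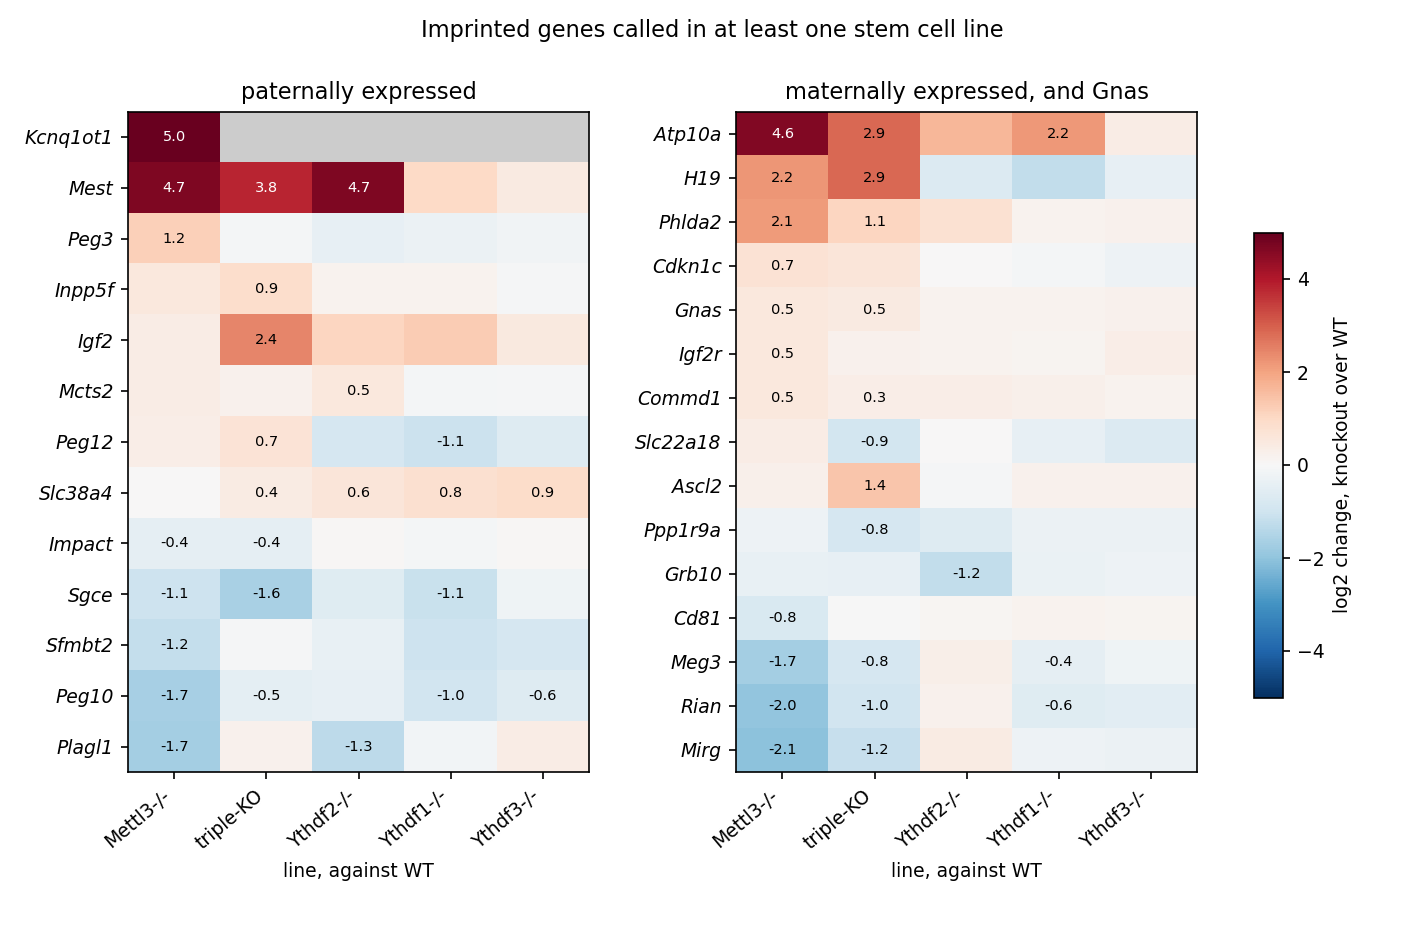
Log2 change against WT (colour) of the 28 members called in at least 1 stem cell line, paternally expressed on the left, maternally expressed and Gnas on the right. A printed value marks a call, and grey marks cells where neither group had more than 3 counts. Mest is high in 3 lines, Slc38a4 in the 4 lines that lack a Ythdf reader, and Meg3, Rian and Mirg are low in Mettl3-/- and triple-KO.

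In triple-KO stem cells 19 of 35 tested members were called, 11 up and 8 down, beside 25.1% of tested genes (13.3% up and 11.8% down). The median log2 change was 0.20 over members and -0.00 over all genes. Without the 5 members that passed the filter only where they were high, 15 of 30 were called (7 up, 8 down), and the median was -0.01. Paternally expressed members counted 5 up and 3 down of 17, maternally expressed members 5 up and 5 down of 17, and Gnas rose. With DESeq2 7 members were called, and leaving out 1 library gave 10 (without triple-KO library A) to 16.

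Of the maternally expressed members of triple-KO cells, H19 had 31.2 and 30.1 CPM in triple-KO cells, against 5.41 and 2.67 CPM in WT cells (2.88 ± 0.41, adjusted p = 5.35e-08). Atp10a had 17.2 and 17.8 CPM in triple-KO and 0.901 and 3.57 CPM in WT cells (2.88 ± 0.52, adjusted p = 1.55e-05), and was lower in triple-KO than in Mettl3-/- cells (-1.76 ± 0.27, adjusted p = 3.68e-07). Ascl2, a transcription factor of trophoblast, had 53.0 and 42.4 CPM in triple-KO and 17.1 and 18.7 CPM in WT cells (1.40 ± 0.24, adjusted p = 1.65e-05). None of these groups overlapped, but H19 and Atp10a passed the count filter only through groups where they were high. Phlda2 rose by 1.08 ± 0.28 (adjusted p = 0.0048), with 39.0 and 30.1 CPM in triple-KO cells, and Commd1 by 0.33 ± 0.10 (adjusted p = 0.037). Meg3 had 85.8 and 105 CPM in triple-KO and 161 and 185 CPM in WT cells (-0.84 ± 0.12, adjusted p = 5.46e-08), and was higher in triple-KO than in Mettl3-/- cells by 0.87 ± 0.17 (adjusted p = 0.000306). Rian had 43.7 and 41.1 CPM in triple-KO and 74.8 and 90.9 CPM in WT cells (-0.97 ± 0.18, adjusted p = 4.38e-05), and Mirg 20.3 and 11 CPM in triple-KO and 27.9 and 41.0 CPM in WT cells (-1.16 ± 0.29, adjusted p = 0.00336). Ppp1r9a, the actin-binding neurabin gene, had 23.4 and 17.8 CPM in triple-KO and 37.8 and 34.8 CPM in WT cells, and the transporter gene Slc22a18 6.24 and 21.9 CPM in triple-KO and 32.4 and 22.3 CPM in WT cells (-0.83 and -0.90). Slc22a18 in particular rested on triple-KO library A: without it the change was -0.32 (adjusted p = 0.647).

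Of the paternally expressed members of triple-KO cells, Igf2, the fetal growth factor, had 15.6 and 19.2 CPM in triple-KO cells, against 1.8 and 4.46 CPM (2 and 5 counts) in WT cells (2.42 ± 0.52, adjusted p = 0.000214). Both triple-KO libraries were above the 10 other stem cell libraries, which ran from 1.8 to 7.78 CPM, and with DESeq2 the adjusted p was 0.0664. Igf2 passed the count filter only through groups where it was high, so this separation is no independent support. Inpp5f, an inositol phosphatase gene, had 42.1 and 37.0 CPM in triple-KO and 23.4 and 19.6 CPM in WT cells (0.87 ± 0.25, adjusted p = 0.0139). Sgce had 14.0 and 6.84 CPM in triple-KO and 29.7 and 33.0 CPM in WT cells (-1.61 ± 0.33, adjusted p = 0.000239), Peg10 76.4 and 64.3 CPM in triple-KO and 97.3 and 97.2 CPM in WT cells (-0.47 ± 0.14, adjusted p = 0.0292), and Impact fell by 0.44 ± 0.14 (adjusted p = 0.0402). Gnas had 410 and 387 CPM in triple-KO and 297 and 281 CPM in WT cells (0.46 ± 0.07, adjusted p = 1.33e-06). The calls that held under every alternative and with every library left out were Mest, Ascl2, Atp10a, Gnas, H19, Meg3 and Rian. The 12 others were lost with DESeq2, and all of them but Igf2 also without at least 1 library, with adjusted p of up to 0.647.

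In single Ythdf knockouts fewer members, and fewer genes in all, were called than in Mettl3-/- or triple-KO cells. In Ythdf1-/- cells 2 rose and 5 fell of 35, beside 3.45% of all tested genes (1.95% up and 1.5% down). In Ythdf2-/- cells 3 rose and 2 fell, beside 1.91% of genes (0.837% up and 1.07% down), and in Ythdf3-/- cells 1 rose and 1 fell, beside 2.84% (1.74% up and 1.1% down). The median log2 change over members was -0.12, 0.08 and -0.05 in the 3 lines, and over all genes -0.00, 0.00 and -0.00. Without the 5 members that passed the filter only where they were high, the counts were 6, 4 and 2 of 30. Slc38a4, an amino acid transporter gene, rose in all 3: it had 183 and 197 CPM in Ythdf1-/-, 194 and 140 CPM in Ythdf2-/- and 204 and 201 CPM in Ythdf3-/- cells, against 110 and 106 CPM in WT cells. The changes were 0.81 ± 0.11 (adjusted p = 1.86e-07), 0.61 ± 0.12 (adjusted p = 0.000658) and 0.90 ± 0.12 (adjusted p = 2.04e-07), and all 6 libraries lay above WT. The call in Ythdf2-/- cells was lost with DESeq2 (adjusted p = 0.544) and without Ythdf2-/- library A (0.37, adjusted p = 0.361). In triple-KO cells Slc38a4 had 154 and 137 CPM (0.43 ± 0.13, adjusted p = 0.0132), less than in Ythdf1-/- (-0.39 ± 0.12, adjusted p = 0.0267) or Ythdf3-/- cells (-0.48 ± 0.12, adjusted p = 0.00694), and in Mettl3-/- cells 133 and 94.9 CPM, which overlapped WT.

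Ythdf2-/- cells differed from the other single knockouts in 3 further members. Over all 11951 tested genes, 1.09% were called against Ythdf1-/- and 0.502% against Ythdf3-/- cells. Differences between lines in these members were not recomputed under any alternative. Plagl1 had 36.2 and 39.6 CPM in Ythdf2-/- cells, against 92.8 and 96.3 CPM in WT cells (-1.31 ± 0.17, adjusted p = 7.03e-08), and was also below Ythdf1-/- (-1.16 ± 0.18, adjusted p = 7.02e-06) and Ythdf3-/- cells (-1.67 ± 0.17, adjusted p = 1.69e-10). Grb10, a signalling adaptor that restrains growth, had 38.8 and 34.9 CPM in Ythdf2-/- and 91.0 and 80.2 CPM in WT cells (-1.22 ± 0.16, adjusted p = 1.07e-06). It was lower in Ythdf2-/- than in Ythdf1-/- (-0.90, adjusted p = 0.00473) and Ythdf3-/- cells (-0.96, adjusted p = 0.0137), while the triple-KO line, at 65.5 and 64.3 CPM, was higher than Ythdf2-/- cells by 0.82 ± 0.19 (adjusted p = 0.00772). Plagl1 was not low in triple-KO cells, at 112 and 110 CPM, and was higher there than in Ythdf2-/- cells by 1.54 ± 0.18 (adjusted p = 1.51e-10) and than in Mettl3-/- cells by 1.91 ± 0.19 (adjusted p = 1.64e-12). Meg3, at 208 and 215 CPM in Ythdf2-/- cells, was higher there than in Ythdf1-/- (0.73 ± 0.10, adjusted p = 6.91e-07) and Ythdf3-/- cells (0.52 ± 0.11, adjusted p = 0.0137). Mcts2, a retrogene inside H13, had 122 and 118 CPM in Ythdf2-/- and 81.1 and 84.7 CPM in WT cells (0.53 ± 0.12, adjusted p = 0.0248), a call lost with DESeq2 and without any 1 of the 4 libraries (adjusted p of up to 1), and its host H13 had a mean of 83.6 CPM in Ythdf2-/- and 109 CPM in WT cells. Peg13, a non-coding RNA in an intron of Trappc9, had 0 counts in both Ythdf2-/- libraries and 8 and 11 counts in WT cells, too few to be tested.

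In Ythdf1-/- cells Peg10 had 43.3 and 56.8 CPM, against 97.3 and 97.2 CPM in WT cells (-0.95 ± 0.14, adjusted p = 6.82e-06), and its neighbour Sgce 14.4 and 14.2 CPM in Ythdf1-/- and 29.7 and 33.0 CPM in WT cells (-1.12 ± 0.28, adjusted p = 0.0149). In Ythdf3-/- cells Peg10 had 68.6 and 57.2 CPM (-0.64 ± 0.15, adjusted p = 0.0197). Meg3 had 120 and 136 CPM in Ythdf1-/- and 161 and 185 CPM in WT cells (-0.44 ± 0.10, adjusted p = 0.0114), and Rian 61.1 and 48.1 CPM in Ythdf1-/- and 74.8 and 90.9 CPM in WT cells (-0.60 ± 0.16, adjusted p = 0.024). Atp10a had 11.1 and 9.84 CPM in Ythdf1-/- and 0.901 and 3.57 CPM in WT cells (2.15 ± 0.56, adjusted p = 0.0226). In each of these the knockout libraries lay wholly on 1 side of WT, but Atp10a passed the count filter only through groups where it was high. With DESeq2 none of these calls held, and all but that of Peg10 in Ythdf1-/- cells were also lost without at least 1 library.

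By position, 27 members lie in 6 clusters of at least 3 members with gaps of up to 1.5 Mb. Their counts stand beside calls on 3.45% of all tested genes in Ythdf1-/-, 1.91% in Ythdf2-/-, 2.84% in Ythdf3-/-, 25.1% in triple-KO and 30.4% in Mettl3-/- cells. In the Sgce to Asb4 cluster (chr6:4674350-5433022) every stem cell call was a fall: 2 of 3 tested members in Ythdf1-/-, 1 in Ythdf3-/-, 3 in triple-KO and 2 in Mettl3-/- cells. With DESeq2 only the fall of Peg10 in Mettl3-/- cells held among these. In the Meg3 cluster (chr12:109452823-109749460) all 3 tested members fell in triple-KO and Mettl3-/- cells and 2 of 3 in Ythdf1-/- cells. With DESeq2 the falls in Ythdf1-/- cells and that of Mirg in triple-KO cells were lost. The H19 to Phlda2 cluster (chr7:142575529-143503150), which runs over 2 imprinted domains, had 8 tested members. In triple-KO cells 4 of them rose (H19, Igf2, Ascl2, Phlda2) and Slc22a18 fell, in Mettl3-/- cells 4 rose (H19, Kcnq1ot1, Cdkn1c, Phlda2) and Cd81 fell, and none was called in a single Ythdf knockout. H19, Igf2 and Kcnq1ot1 passed the filter only through groups where they were high. Of the 5 tested members without them, 2 rose (Ascl2 and Phlda2) and 1 fell in triple-KO cells, and 2 rose (Cdkn1c and Phlda2) and 1 fell in Mettl3-/- cells. With DESeq2 the calls on Igf2, Phlda2 and Slc22a18 in triple-KO cells and on Cdkn1c in Mettl3-/- cells were lost. H19 and Igf2, transcribed from opposite parental copies, were both called up in triple-KO cells, while in Mettl3-/- cells H19 was called and Igf2 had 4 and 2 counts, against 2 and 5 in WT cells.

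Of 21 tested genes of a further list of imprinted genes, 1 rose in Ythdf1-/-, 1 fell in Ythdf2-/- and none was called in Ythdf3-/- cells, 2 rose and 4 fell in triple-KO, and 4 rose and 4 fell in Mettl3-/- cells, beside the 3.45%, 1.91%, 2.84%, 25.1% and 30.4% of all tested genes called in these 5 lines. Dio3, the paternally expressed thyroid hormone deiodinase at the far end of the Meg3 cluster, averaged 28.7 CPM in Mettl3-/-, 71.9 CPM in triple-KO, 44.1 CPM in Ythdf1-/- and 15.7 CPM in WT cells, a rise in all 3 (0.90 ± 0.28, 2.18 ± 0.22 and 1.48 ± 0.24). Zdbf2, a paternally expressed zinc-finger gene, averaged 22.6 CPM in Mettl3-/-, 14.5 CPM in triple-KO and 48.9 CPM in WT cells (-1.11 ± 0.22 and -1.73 ± 0.26). Of 27 tested genes that write, read or erase DNA methylation or keep imprints, 2 rose and 4 fell in Mettl3-/-, 6 rose and 2 fell in triple-KO, 2 rose in Ythdf1-/-, 1 rose in Ythdf2-/- and none was called in Ythdf3-/- cells, to be read against the same shares. Dppa3, which protects methylation of the maternal genome in the zygote, averaged 110 CPM in Mettl3-/-, 147 CPM in triple-KO, 123 CPM in Ythdf1-/-, 69.2 CPM in Ythdf2-/- and 34.1 CPM in WT cells and rose in these 4 lines (1.02 to 2.10). Dnmt3l, the cofactor of the de novo methyltransferases, averaged 26.1 CPM in Mettl3-/-, 160 CPM in triple-KO and 76.2 CPM in WT cells, a fall in Mettl3-/- (-1.58 ± 0.19, adjusted p = 6.53e-10) and a rise in triple-KO cells (1.07 ± 0.12, adjusted p = 3.23e-11). Zfp57 averaged 359 CPM in Mettl3-/- and 455 CPM in WT cells (-0.34 ± 0.07, adjusted p = 0.000227).

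Markers of other cell states also moved between the lines. The 6 stem cell markers summed to 2617 to 2955 CPM in Mettl3-/- and 2768 to 2953 CPM in triple-KO libraries, against 2472 to 2522 CPM in WT. They were above WT in the single Ythdf knockouts too, at 2669 to 2778 CPM in Ythdf1-/-, 2702 to 2747 CPM in Ythdf2-/- and 2884 to 3005 CPM in Ythdf3-/- libraries. The 2-cell stage markers (14 of 15 listed were in the table) summed to 93.6 to 102 CPM in Mettl3-/-, 1532 to 1541 CPM in triple-KO, 798 to 859 CPM in Ythdf1-/-, 162 to 169 CPM in Ythdf2-/- and 383 to 407 CPM in Ythdf3-/- cells, against 69.5 to 90.1 CPM in WT cells. Trophoblast markers (7 of 10 listed) summed to 371 to 384 CPM in Mettl3-/-, 339 to 357 CPM in triple-KO and 299 to 314 CPM in WT cells. In Ythdf1-/-, Ythdf2-/- and Ythdf3-/- cells they summed to 277 to 307, 291 to 336 and 289 to 315 CPM. The trophoblast list includes Ascl2, itself a member, whose rise in triple-KO cells is part of that sum. Neural markers (5 of 8 listed) summed to 206 to 217 CPM in Mettl3-/-, 128 to 137 CPM in triple-KO and 96.3 to 106 CPM in WT cells. In the same 3 single knockouts they summed to 88.9 to 98.4, 86.6 to 94.3 and 83.7 to 85.1 CPM. Mesoderm and endoderm markers (7 of 9) summed to 98.6 to 110 CPM in Mettl3-/-, 133 to 152 CPM in triple-KO, 115 to 124 CPM in Ythdf1-/-, 132 to 150 CPM in Ythdf2-/- and 107 to 130 CPM in Ythdf3-/- cells, against 155 to 177 CPM in WT cells. Primitive endoderm markers (10 of 11) summed to 501 to 541 CPM in Mettl3-/- cells and 613 to 681 CPM in the 4 Ythdf lines, against 603 to 613 CPM in WT cells. Oocyte markers (3 of 10) summed to 151 to 186 CPM in Mettl3-/-, 199.8 to 217 CPM in triple-KO, 149 to 162 CPM in Ythdf1-/-, 93.1 to 102 CPM in Ythdf2-/- and 79.7 to 100.4 CPM in Ythdf3-/- cells, against 60.6 to 71.2 CPM in WT cells. These 3 include Dppa3, whose rise in Mettl3-/-, triple-KO, Ythdf1-/- and Ythdf2-/- cells is given above and is part of the sums. Markers of fibroblast feeders (6 of 11) summed to 85.4 to 91.4 CPM in Mettl3-/-, 136 to 141 CPM in triple-KO, 116 to 124 CPM in Ythdf1-/-, 100 to 103 CPM in Ythdf2-/- and 112 to 118 CPM in Ythdf3-/- cells, against 120 to 140 CPM in WT cells. The part of any of these in the changes above was not tested. In bulk RNA, more cells of a type and more RNA per cell cannot be told apart.

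In GV oocytes, Mest had 95.7, 76.4 and 26.0 CPM in Zp3-Cre+ libraries, against 184, 61.2, 35.3 and 76.7 CPM in Zp3-Cre- libraries. The groups overlapped widely (-0.43, adjusted p = 0.595). Peg12 had 8, 3 and 2 counts in Zp3-Cre+ libraries and 0 in all 4 Zp3-Cre- libraries. The 95% counting interval of the ratio of Zp3-Cre+ to Zp3-Cre- oocytes has a lower limit of 3.25, at levels under 1 CPM, and the gene was not tested. Libraries within a GV group differed by a chi-square of 26.9 to 150 per gene, far more than counting noise. A counting interval leaves that spread out and is too narrow here.

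Of 33 tested members 13 were called in GV oocytes, 6 up and 7 down, beside 28.8% of tested genes (15.4% up and 13.4% down). The median log2 change was -0.22 over members and 0.04 over all genes. Paternally expressed members counted 2 up and 3 down of 17, maternally expressed members 3 up and 4 down of 15, and Gnas rose. Grb10 had 59.2, 78.0 and 97.0 CPM in Zp3-Cre+ and 35.8, 39.5, 34.2 and 35.0 CPM in Zp3-Cre- libraries (1.11 ± 0.22, adjusted p = 0.00605). Asb4, an ankyrin-repeat gene of ubiquitin ligase complexes, had 47.9, 39.5 and 59.9 CPM in Zp3-Cre+ and 13.4, 17.6, 28.6 and 11.2 CPM in Zp3-Cre- libraries (1.47 ± 0.34, adjusted p = 0.0118). Airn, the non-coding RNA antisense to Igf2r, had 7.32, 13.6 and 10.2 CPM in Zp3-Cre+ and 3.06, 3.92, 3.46 and 3.37 CPM in Zp3-Cre- libraries (1.59 ± 0.36, adjusted p = 0.0105). Its partner Igf2r had 32.7, 43.0 and 84.3 CPM in Zp3-Cre+ and 29.3, 44.3, 52.2 and 52.6 CPM in Zp3-Cre- libraries and was not called. Every Zp3-Cre+ library lay above every Zp3-Cre- library for Grb10, Asb4 and Airn. Gnas had 470, 495 and 611 CPM in Zp3-Cre+ and 171, 240, 396 and 262 CPM in Zp3-Cre- libraries (0.97 ± 0.27, adjusted p = 0.0248), Smoc1, a secreted calcium-binding protein gene, 10.9, 3.92 and 5.86 CPM in Zp3-Cre+ and 1.11, 1.47, 2.62 and 1.78 CPM in Zp3-Cre- libraries (1.99 ± 0.50, adjusted p = 0.0163), and Ndn 17.2, 15.2 and 8.86 CPM in Zp3-Cre+ and 1.53, 0.367, 5.88 and 2.34 CPM in Zp3-Cre- libraries (2.44 ± 0.69, adjusted p = 0.0261). These groups did not overlap either.

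Of the members that fell in GV oocytes, Usp29, a gene of the deubiquitinase family next to Peg3, had 2.57, 2.57 and 6.61 CPM in Zp3-Cre+ and 13.3, 21.8, 17.8 and 31.2 CPM in Zp3-Cre- libraries (-2.46 ± 0.48, adjusted p = 0.00519). Atp10a had 6.76, 3.79 and 3.6 CPM in Zp3-Cre+ and 17.5, 17.1, 24.0 and 11.5 CPM in Zp3-Cre- libraries (-1.88 ± 0.39, adjusted p = 0.00721). Ppp1r9a had 4.47, 4.05 and 4.36 CPM in Zp3-Cre+ and 9.30, 20.4, 24.2 and 12.8 CPM in Zp3-Cre- libraries (-1.96 ± 0.41, adjusted p = 0.00709). No library overlapped between groups for these 3, and with Grb10 they are the calls that held under every alternative and every library left out. Zim1, a zinc-finger gene beside Peg3, had 0, 0 and 2 counts in Zp3-Cre+ and 62 counts over the Zp3-Cre- libraries, a ratio of 29.1-fold lower with a counting interval from 7.71 to 245. The spread between libraries, far above counting noise in these oocytes, is not part of that interval.

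Meg3 had 0.112, 1.99 and 1.65 CPM in Zp3-Cre+ and 5.69, 20.2, 52.2 and 6.46 CPM in Zp3-Cre- libraries (-4.11 ± 1.06, adjusted p = 0.0182). Nnat, neuronatin, had 0, 0.772 and 0.601 CPM in Zp3-Cre+ and 0.833, 11.6, 20.7 and 1.78 CPM in Zp3-Cre- libraries (-4.30 ± 1.35, adjusted p = 0.0385), and Kcnq1ot1 0.447, 5.72 and 2.10 CPM in Zp3-Cre+ and 4.93, 20.4, 58.2 and 11 CPM in Zp3-Cre- libraries (-3.08 ± 0.99, adjusted p = 0.0416, groups overlapping). In all 3 genes Zp3-Cre- libraries 2 and 3 were the highest. They were also the highest for Ppp1r9a, whose change was -1.48 without them (adjusted p = 0.0255). The 14 granulosa and cumulus cell markers, of which 1 was at 0 in Zp3-Cre+ library 1 and none in the others, summed to 77.0, 341 and 143 CPM in Zp3-Cre+ and 377, 769, 1976 and 456 CPM in Zp3-Cre- libraries, again highest in Zp3-Cre- 2 and 3. Without those 2 libraries Meg3 (-2.44, adjusted p = 0.067), Nnat (-1.68, adjusted p = 0.326), Kcnq1ot1 (-1.65, adjusted p = 0.18) and Zim1 (-3.99, adjusted p = 0.0653) were not called, and Gab1, an adaptor gene at 27.2, 24.8 and 17.3 CPM in Zp3-Cre+ and 3.68, 9.30, 30.4 and 4.21 CPM in Zp3-Cre- libraries, was called up (2.43, adjusted p = 0.00358). Nap1l5, at 0.782, 34.9 and 2.4 CPM in Zp3-Cre+ and 43.3, 138, 422 and 52.2 CPM in Zp3-Cre- libraries, had the same order among controls and was not called (-3.66, adjusted p = 0.0551). The part of the marker difference in these values was not tested. The 10 oocyte markers summed to 28855, 28682 and 21004 CPM in Zp3-Cre+ and 27208, 17135, 15408 and 21557 CPM in Zp3-Cre- libraries. Smoc1, Airn, Asb4, Ndn and Gnas each lost their call without at least 1 library, with adjusted p of up to 0.116, 7 members being called without Zp3-Cre+ library 1 and 8 without Zp3-Cre+ library 3.

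**Figure D3:**
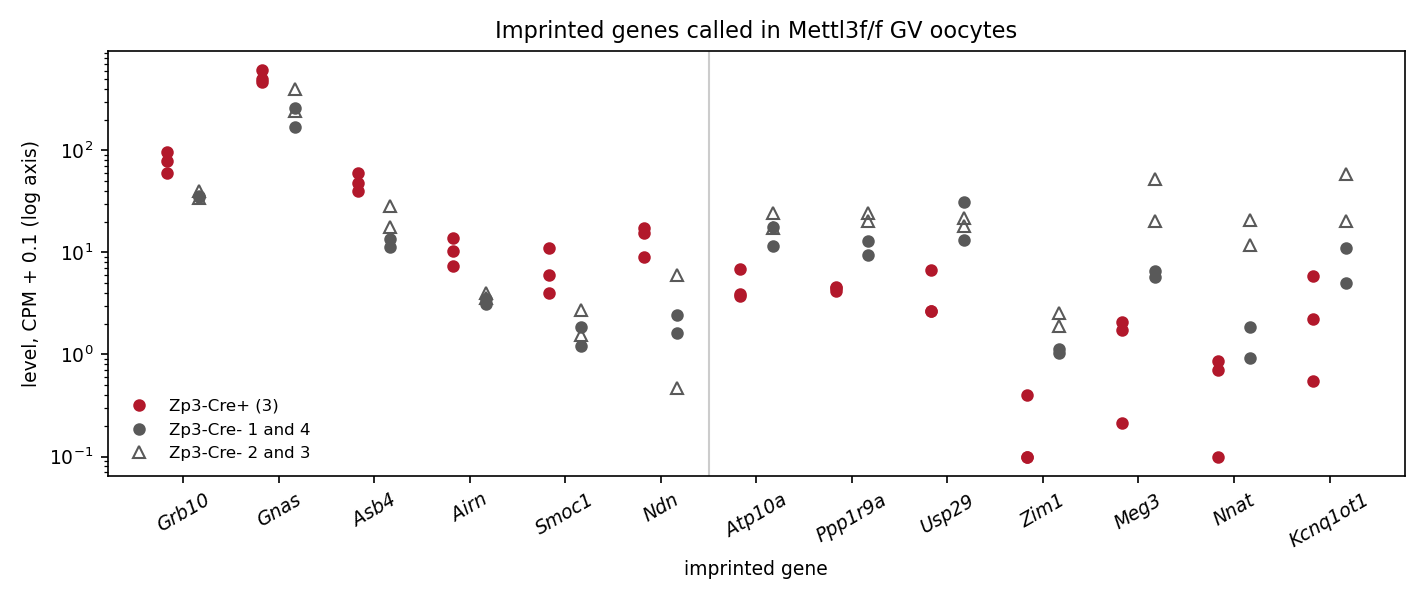
Level of the 13 called members in each GV oocyte library, as CPM + 0.1 on a log axis; red circles are the 3 Zp3-Cre+ libraries, grey circles Zp3-Cre- 1 and 4 and open triangles Zp3-Cre- 2 and 3, with rises left of the line and falls right. In Meg3, Nnat and Kcnq1ot1, and also in Ppp1r9a, the triangles are the highest points. In Grb10, Atp10a, Ppp1r9a and Usp29 the groups stand apart with or without the triangles, as they do in the other called genes except Kcnq1ot1.

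In GV oocytes 3 of 27 tested genes of the further imprinted list rose (Ampd3, Th and Dio3) and 3 fell (Ago2, Slc22a3 and Qpct). Of 27 tested methylation and imprint-keeping genes 4 rose and 6 fell. Both counts stand beside the 28.8% of all tested genes called. Dnmt3a, the methyltransferase that sets imprints in oocytes, averaged 89.3 CPM in Zp3-Cre+ and 145 CPM in Zp3-Cre- libraries (-0.70 ± 0.22, adjusted p = 0.0367), and Dnmt3l 47.9 CPM in Zp3-Cre+ and 95.6 CPM in Zp3-Cre- libraries (-1.0 ± 0.25, adjusted p = 0.0168). Dnmt3b averaged 35.5 CPM in Zp3-Cre+ and 15.2 CPM in Zp3-Cre- libraries (1.22 ± 0.27, adjusted p = 0.00869), and Dppa3 5177 CPM in Zp3-Cre+ and 2224 CPM in Zp3-Cre- libraries (1.22 ± 0.20, adjusted p = 0.00224).

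In post-GV oocytes none of 35 tested members was called with edgeR, beside 0% of 13910 tested genes. At an unadjusted p under 0.05 there were 3 members and 782 genes (5.62%), and with DESeq2 77 genes and 0 members were called. The median log2 change was -0.38 over members and -0.09 over all genes. Mest had 160 and 79.1 CPM in Ythdf2-/- oocytes, against 147, 77.6 and 246 CPM in Ythdf2+/- oocytes, and the groups overlapped (-0.40 ± 0.59, adjusted p = 0.865). Peg12 was not in the post-GV table.

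The 3 members at an unadjusted p under 0.05 were higher in both Ythdf2-/- libraries than in any Ythdf2+/- library. They were picked by their p in these same libraries, so this separation and the ratios within batches are no independent support. The share of all genes so separated is not given. Inpp5f had 55.0 and 65.1 CPM in Ythdf2-/- and 22.1, 23.1 and 22.4 CPM in Ythdf2+/- libraries (1.41 ± 0.37, adjusted p = 0.738). Igf2r had 33.2 and 29.7 CPM in Ythdf2-/- and 8.02, 13.3 and 7.23 CPM in Ythdf2+/- libraries (1.72, adjusted p = 0.8). Phlda2 had 20.4 and 13.7 CPM in Ythdf2-/- and 5.90, 3.07 and 7.02 CPM in Ythdf2+/- libraries (1.67, adjusted p = 0.843). The authors' batch-adjusted values placed Ythdf2-/- 1 and Ythdf2+/- 1 and 2 in 1 batch and Ythdf2-/- 2 and Ythdf2+/- 3 in another. Within the first and second batch the log2 ratios, at a pseudocount of 0.5 CPM, were 1.27 and 1.52 for Inpp5f, 1.59 and 1.97 for Igf2r and 2.07 and 0.91 for Phlda2. With batch as a term in the fit Igf2r was called (1.81 ± 0.44, adjusted p = 0.0465), 1 member among 258 genes, and Inpp5f (adjusted p = 0.066) and Phlda2 (0.0943) were not.

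**Figure D4:**
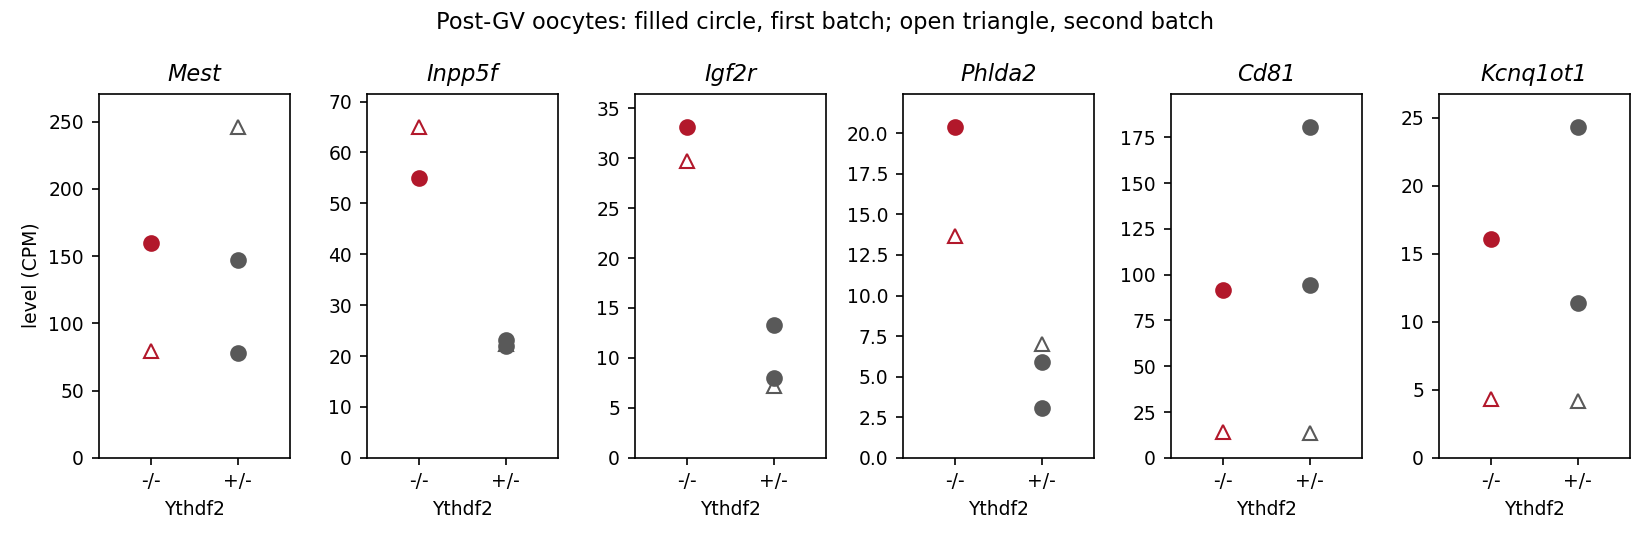
Level in CPM of 6 members in post-GV oocytes, Ythdf2-/- at left and Ythdf2+/- at right in each panel; filled circles are the first batch and open triangles the second. Inpp5f, Igf2r and Phlda2, picked by unadjusted p in these libraries, are higher in Ythdf2-/- in both batches. Cd81 and Kcnq1ot1 differ between batches and Mest overlaps.

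Levels of some members followed the batch. Cd81 had 91.8 and 14.3 CPM in Ythdf2-/- and 94.5, 181 and 13.6 CPM in Ythdf2+/- libraries, low in both libraries of the second batch, and Kcnq1ot1 16.1 and 4.34 CPM in Ythdf2-/- and 11.4, 24.3 and 4.17 CPM in Ythdf2+/- libraries in the same way. Granulosa and cumulus markers (13 of 14 in the table) summed to 1200 and 189 CPM in Ythdf2-/- and 2283, 4169 and 203 CPM in Ythdf2+/- libraries, also low in the second batch, and oocyte markers to 13263 and 13357 CPM in Ythdf2-/- and 8922, 5936 and 8080 CPM in Ythdf2+/- libraries. For Mest the 2 batches went opposite ways, with log2 ratios of 0.50 and -1.63. None of 27 tested genes of the further imprinted list and none of 27 methylation and imprint-keeping genes was called by edgeR.

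In round spermatids Mest and Peg12 were not in the table. Of 32 tested members 3 were called, 2 up and 1 down, beside 4.9% of 16031 tested genes (2.25% up and 2.64% down), and the median log2 change was 0.08 over both members and all genes. Without Plagl1, Nnat, Igf2 and Ascl2, which passed the filter only through the Ythdf2-/- libraries, it was 3 of 28 and the median was -0.04. Asb4 had 35.8 and 25 CPM in Ythdf2-/- spermatids, against 106 CPM in the Ythdf2+/+ library (-1.80 ± 0.28, adjusted p = 7.73e-07). Kcnq1ot1 had 156 and 217 CPM in Ythdf2-/- and 94.9 CPM in Ythdf2+/+ spermatids (0.97 ± 0.26, adjusted p = 0.0118), and Cdkn1c 15.4 and 10.8 CPM in Ythdf2-/- and 4.57 CPM in Ythdf2+/+ spermatids (1.51 ± 0.46, adjusted p = 0.0317). Kcnq1, which lies antisense to Kcnq1ot1, averaged 3.99 CPM in Ythdf2-/- and 1.69 CPM in Ythdf2+/+ spermatids and was not called. With 1 control animal the spread among controls is unknown and is taken from the 2 Ythdf2-/- libraries. Only the call of Asb4 held under every alternative, that of Kcnq1ot1 being lost with DESeq2 (adjusted p = 0.0616) and that of Cdkn1c with DESeq2 (0.109) and with a filter of 5 CPM (0.0597).

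**Figure D5:**
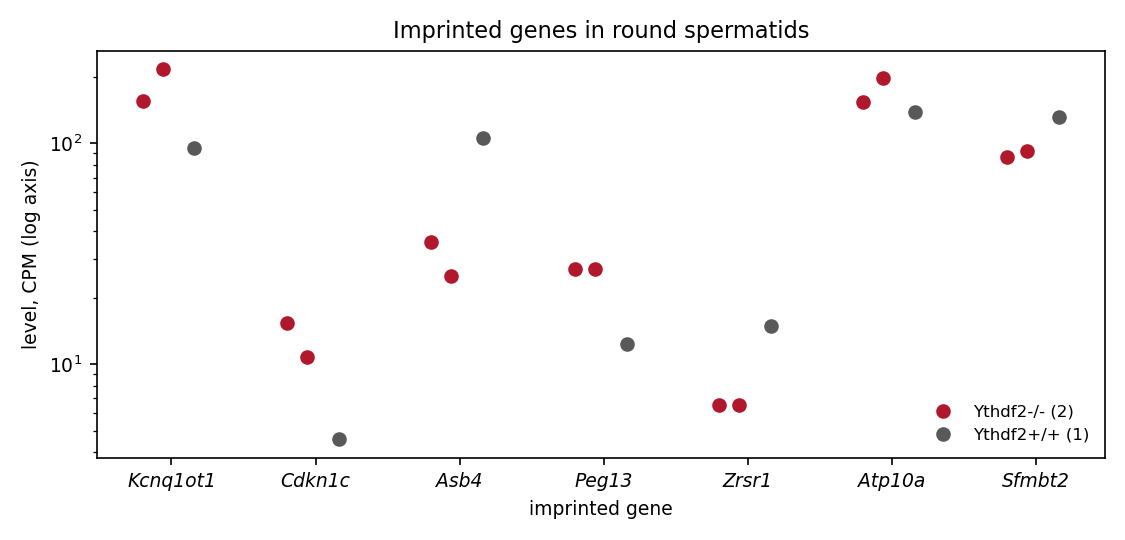
Level in CPM, on a log axis, of 7 members in round spermatids; red points are the 2 Ythdf2-/- libraries and grey points the Ythdf2+/+ library. Kcnq1ot1 and Cdkn1c are higher and Asb4 lower in Ythdf2-/-, and the other members shown are not called.

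With 1 control library, 13 of the 32 tested members lay above it in both Ythdf2-/- libraries, 14 below it in both and 5 on both sides, so a lack of overlap is common here. The share over all tested genes is not given, so this count is no result about the members. Peg13 had 27.1 and 27.0 CPM in Ythdf2-/- and 12.4 CPM in Ythdf2+/+ spermatids (1.13 ± 0.37, adjusted p = 0.0568), and Zrsr1, a splicing-factor retrogene antisense to Commd1, had 6.56 and 6.51 CPM in Ythdf2-/- and 14.9 CPM in Ythdf2+/+ spermatids (-1.19 ± 0.42, adjusted p = 0.0789). Sfmbt2 had 86.8 and 92.4 CPM in Ythdf2-/- and 132 CPM in Ythdf2+/+ spermatids, Ube3a, the ubiquitin ligase gene, 277 and 232 CPM in Ythdf2-/- and 283 CPM in Ythdf2+/+ spermatids, Atp10a 154 and 197 CPM in Ythdf2-/- and 138 CPM in Ythdf2+/+ spermatids, and Commd1 118 and 109 CPM in Ythdf2-/- and 145 CPM in Ythdf2+/+ spermatids, none of them called. The 10 round spermatid markers summed to 9689 to 14026 CPM in Ythdf2-/- and 8385 CPM in Ythdf2+/+ libraries, spermatocyte and spermatogonia markers (11 of 12) to 758 to 844 CPM in Ythdf2-/- and 1044 CPM in Ythdf2+/+ libraries, and somatic testis markers (12 of 18) to 28.8 to 39.2 CPM in Ythdf2-/- and 20.04 CPM in Ythdf2+/+ libraries. The part of these in the calls was not tested. Of 29 tested genes of the further imprinted list only Nap1l4 fell (-1.11 ± 0.25, adjusted p = 0.00202), and of 27 methylation and imprint-keeping genes only Uhrf1, which guides maintenance methylation (-1.07 ± 0.27, adjusted p = 0.00621).

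Per kilobase of exon, the members ranked differently in the 4 control groups, which were not normalised together. In WT stem cells Cd81 was highest at 134 to 152 CPM per kb, followed by Mcts2 at 88.9 to 92.9 CPM per kb, Peg12 ranked 13 and Mest 34 of 39 at 0.678 to 0.685 CPM per kb. In Zp3-Cre- GV oocytes Mest ranked 4, at 8.94 to 46.6 CPM per kb, and in Ythdf2+/- post-GV oocytes it ranked 1, at 19.7 to 62.4 CPM per kb, a range that overlapped that of Cd81 (4.72 to 62.8 CPM per kb). In the Ythdf2+/+ spermatid library Asb4 (26.9 CPM per kb), Atp10a (24.7), Commd1 (24.5) and Mcts2 (24.4) led. Of the abundant members not called in stem cells, Gab1 had 140 to 168 CPM (median 162) over the 12 libraries. Ube3a, not called in oocytes of either stage, had 129 to 314 CPM (median 232) in GV and 150 to 254 CPM (median 162) in post-GV oocytes.

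The letters GGACT, the commonest form of the sequence in which m6A is set, occurred at a median of 0.932 per kb in the longest transcripts of the 46 members and 1.05 per kb in those of 13166 genes of the stem cell table. The Mest transcript of 2.67 kb holds 1 copy (0.375 per kb, and 12.2% of those genes have fewer per kb), and the Peg12 transcript holds 1.52 per kb, more than 75.3% of genes. Such a match is no measurement of methylation.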

How the data were processed

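The members, the marker lists and the further gene lists were chosen with earlier results of these data known. Every test started from the authors' whole-number counts per gene and library. The submitters' processing notes name CASAVA 1.8.2, cutadapt, STAR 2.4.2a, DESeq2 and the mm10 build. Neither the counting step nor its use of strand is stated in them or in the labels. Beside the counts, the authors deposited normalized signal, which entered no test, and the batch-adjusted log2 values deposited by the authors served only to read the 2 post-GV batches. 0 columns of per-sample counts were left unmapped.

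A separate edgeR 4.0.16 model (R 4.3.3, limma 3.58.1) was made per experiment: TMM factors, filterByExpr with a minimum count of 10, and quasi-likelihood F tests with robust spread. P-values were Benjamini-Hochberg adjusted across every gene tested. Scripts were tested on simulated data. Alternatives were RLE scaling, no filter, a filter of 5 CPM, the compared groups only, DESeq2 1.42.0, the replicate number as a block and each library left out. Chosen after seeing the data were a batch term, the first batch alone and GV oocytes without Zp3-Cre- 2 and 3. Per-library values are given for Mest, Peg12, up to 30 members called at least once, by smallest adjusted p, and members averaging at least 100 CPM. A further 5 called members fall outside that limit, and those with values here, as well as Peg13, Zrsr1, Nap1l5, Gab1, Sfmbt2 in spermatids and the low counts of Magel2, were chosen after their values were seen. Intervals and floors cover counting error alone, at a 95% level, and not the spread between libraries.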

Additional observations from a re-analysis of the deposited data

Results flagged for a closer look

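Commd1 in Zp3-Cre- GV oocyte library 1, at 205.95 CPM, stood far from the other 3 Zp3-Cre- libraries (156 to 158 CPM). It was the single such case among 33 member levels examined, where chance gives about 1 in 20.

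Members whose libraries all moved one way in 1 cell type and all the opposite way in another under loss of the same gene numbered 10 pairs of 110 compared, and the difference between the cell types was not tested in any of them. The same count over all genes is not given, so the number is no result about the members. In spermatids, with 1 control library, a lack of overlap is common. Under loss of Mettl3, the log2 change of Grb10 was -0.35 in stem cells and 1.11 in GV oocytes, and that of Atp10a was 4.64 in stem cells and -1.88 in GV oocytes. Under loss of Ythdf2, stem cells and spermatids differed in sign for Peg10 (-0.42 and 0.60), Plagl1 (-1.31 and 3.64, in spermatids on 18 counts against 1), Sgce (-0.59 and 1.12), Ppp1r9a (-0.64 and 0.38), Commd1 (0.34 and -0.35) and Gnas (0.16 and -0.55). Post-GV oocytes and spermatids differed in sign for Inpp5f (1.41 and -1.31) and Ppp1r9a (-1.14 and 0.38). Of these values Grb10 and Atp10a in GV oocytes, Atp10a in Mettl3-/- stem cells and Plagl1 in Ythdf2-/- stem cells passed the edgeR test.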

How the results depend on the processing

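The direction of the 71 single-gene calls on members other than Mest was the same under every alternative and with each library left out. Between pairs of knockout lines these 71 include only the calls on Peg12. Differences between knockout lines in Slc38a4, Grb10, Meg3, Plagl1 and Atp10a were not recomputed under any alternative. RLE scaling, no filter on low counts and the compared groups alone lost none of the calls recomputed, and the filter of 5 CPM lost 1. DESeq2 lost 31 of 71, so that the members called were 1 in Ythdf1-/- (of 56 genes called), 3 in Ythdf2-/- (of 11), 1 in Ythdf3-/- (of 29), 7 in triple-KO (of 785) and 14 in Mettl3-/- stem cells (of 1241) and 1 in spermatids (of 398), while in GV oocytes it called 16 members (of 4968 genes), against 13 with edgeR; the cause was not tested. Leaving out 1 library gave 3 to 5 members in Ythdf1-/-, 3 to 4 in Ythdf2-/-, 1 in Ythdf3-/-, 10 to 16 in triple-KO, 15 to 19 in Mettl3-/- stem cells, 7 to 13 in GV oocytes and 0 in post-GV oocytes. In post-GV oocytes the batch term gave 1 member and the first batch alone 3, of 666 genes called; that fit has 1 Ythdf2-/- library, assumed to vary like the 2 Ythdf2+/- libraries. DESeq2 put Mest in triple-KO against Mettl3-/- cells at -0.89 and against Ythdf2-/- cells at -0.89, neither called. Uncalled differences changed sign when 1 library was left out: Mest in Ythdf3-/- against WT ran from -0.64 (without Ythdf3-/- library B) to 0.95, Mest in Mettl3-/- against Ythdf2-/- from -0.056 to 0.035 (0.035 without Mettl3-/- library B and 0.011 without Ythdf2-/- library B), and Peg12 in Ythdf2-/- against Ythdf3-/- from -0.40 to 0.043 (without Ythdf2-/- library B).

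With the replicate number as a block the members called were 7 in Ythdf1-/-, 5 in Ythdf2-/-, 2 in Ythdf3-/-, 19 in triple-KO and 19 in Mettl3-/- stem cells, 15 in GV oocytes and 0 in post-GV oocytes. Over all genes the calls were then 420, 242, 347, 3008 and 3630 in these stem cell lines, 4540 in GV oocytes and 3 in post-GV oocytes. Residuals of same-letter stem cell libraries correlated at 3.91e-05 to 0.0386, those of same-number GV libraries at 0.481, 0.096 and 0.274, and those of post-GV libraries at 0.465 and -0.637, so the numbers were not taken as pairing. One post-GV Ythdf2+/- label gives replicate 2 in its title and 3 in its bracketed name; it was taken as 3 here, and its residuals correlated at 0.678 with those of Ythdf2-/- 2, a library of the same batch. With the title's number 2 Ythdf2+/- libraries would share a number. In spermatids no paired analysis was possible because there is 1 control library, and leaving out a Ythdf2-/- library leaves no residual degrees of freedom for a test. Stem cell libraries are an order shallower than the others, which limits members with few counts there.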
